A study of Homo sapiens with 12 samples.

Results

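Antisense genes, recognised by a symbol that ends in -AS and a number, made up 1320 of the 60623 gene rows of a count table from 12 RNA-seq libraries. The 318 genes described here are those whose mean over the libraries reached 1 CPM (CPM being reads scaled to the column total); they carry 317 symbols, since DNAJC9-AS1 is listed under 2 gene IDs. Of the remaining antisense rows, 355 had no read in any library. The gene with the same symbol stem, called the sense gene below, was in the table for 307 of the 318 and served as the comparison. Just inside the limit stood RNF157-AS1 at 1.003 CPM, and just outside stood DSG2-AS1 at 0.9915 CPM.

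The libraries came from NUGC-4, an established line of diffuse gastric cancer that the labels give as wild type. Cells received 1 µM IN10018, an inhibitor of focal adhesion kinase, or 1 µM crizotinib, an inhibitor of the receptor kinases ALK, MET and ROS1. A combination group received both drugs and a control group neither, all for 24 h, with 3 libraries in each group. Whether a group's libraries are separate cultures is not stated in the labels; p-values here therefore reflect the scatter among these libraries alone.

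An antisense transcript is read from the DNA strand opposite another gene. Many start at or near the promoter of that gene and run away from it, and others lie inside it or cross its end. Some, such as OIP5-AS1, are abundant and spliced, while many are made at low levels and are removed in the nucleus by the RNA exosome. Described roles include binding of miRNAs and proteins and effects on the chromatin of the sense gene, but most have no known role.

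Column totals ran from 13691844 to 20489708 reads. Of 10 epithelial and gastric genes, 5 reached a mean of 1 CPM. The epithelial keratins KRT8 and KRT18 averaged 1524 and 733 CPM, whereas KRT19 was at 0 in all 12 libraries and CDH17, TFF3 and MUC13 were near 0. Among markers of other cell types, 3 of 7 adipocyte genes, 4 of 6 fibroblast genes, 1 of 4 leukocyte genes and 2 of 3 endothelial genes reached a mean of 1 CPM. The fibroblast gene COL3A1 averaged 5761 CPM, above every epithelial marker. FABP4 of the adipocyte list averaged 85.45 CPM and CD14 of the leukocyte list 25.39 CPM. Adipocyte genes were included because a label mentions adipogenic differentiation; ADIPOQ was at 0. The summed endothelial markers ran from 35.9 to 43.4 CPM in the combination group and from 16.6 to 20.4 CPM in control. The adipocyte sum ran from 113 to 145 CPM in the combination group and from 67.5 to 72.0 CPM in control, and the leukocyte sum from 29.8 to 35.3 CPM in the combination group and from 17.3 to 21.7 CPM in control. The epithelial sum ran from 2496 to 3771 CPM in the combination group and from 1871 to 1934 CPM in control, while the fibroblast sums overlapped. The part of these cell-type markers in the results was not tested. Crizotinib library 2 and combination library 2 stood apart from the other libraries of their groups on the leading axis within groups, with 5.21% and 4.28% of reads on mitochondrially encoded genes.

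The promoter windows of 4 antisense genes are shown because DICER1-AS1, NNT-AS1 and GABPB1-AS1 rose where their sense genes fell, and FGD5-AS1 had the deepest fall among the 8 most abundant members. Each window holds 250 bases before and 50 after the first start that RefSeq lists on GRCh38.p14, read 5′ to 3′ on the strand of the antisense gene. The windows lie at chr14:95157438-95157737 (plus strand) for DICER1-AS1, chr5:43603181-43603480 (minus) for NNT-AS1, chr15:50353924-50354223 (plus) for GABPB1-AS1 and chr3:14948392-14948691 (minus) for FGD5-AS1. Capitals mark matches, on either strand, to the AP-1 motif TGANTCA, the SP1 motif GGGCGG, the CCAAT box, the TATA box TATAAA and the ETS motif CCGGAAG. None of the marked matches overlap.
DICER1-AS1: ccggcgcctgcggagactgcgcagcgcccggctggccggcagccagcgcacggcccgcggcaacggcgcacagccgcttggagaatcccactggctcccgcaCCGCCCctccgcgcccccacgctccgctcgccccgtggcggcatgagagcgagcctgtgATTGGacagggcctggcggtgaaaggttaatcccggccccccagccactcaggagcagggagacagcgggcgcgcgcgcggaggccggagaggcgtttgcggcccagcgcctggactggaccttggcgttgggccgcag
NNT-AS1: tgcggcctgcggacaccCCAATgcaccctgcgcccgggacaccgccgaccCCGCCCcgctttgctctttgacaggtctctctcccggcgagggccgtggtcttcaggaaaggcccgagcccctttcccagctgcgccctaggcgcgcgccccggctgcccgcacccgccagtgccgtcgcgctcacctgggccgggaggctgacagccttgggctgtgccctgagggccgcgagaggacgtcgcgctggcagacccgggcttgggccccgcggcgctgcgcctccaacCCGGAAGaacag
GABPB1-AS1: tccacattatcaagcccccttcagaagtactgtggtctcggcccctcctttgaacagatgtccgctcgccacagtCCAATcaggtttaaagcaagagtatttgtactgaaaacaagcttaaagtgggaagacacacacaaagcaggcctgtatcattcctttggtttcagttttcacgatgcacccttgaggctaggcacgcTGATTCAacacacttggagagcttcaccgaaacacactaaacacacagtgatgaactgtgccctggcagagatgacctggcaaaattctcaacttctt
FGD5-AS1: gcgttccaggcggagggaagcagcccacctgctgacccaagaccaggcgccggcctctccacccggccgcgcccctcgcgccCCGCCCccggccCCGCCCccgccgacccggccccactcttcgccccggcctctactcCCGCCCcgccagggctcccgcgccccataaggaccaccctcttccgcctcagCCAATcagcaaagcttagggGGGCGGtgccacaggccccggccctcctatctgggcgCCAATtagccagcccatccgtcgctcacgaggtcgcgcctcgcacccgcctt

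The DICER1-AS1 window shared 258 of its 300 bases with the window of DICER1 on the other strand, so the same stretch of DNA serves as the annotated promoter of both. The windows of NNT-AS1, GABPB1-AS1 and FGD5-AS1 shared no base with the first RefSeq window of their sense genes. GGGCGG was matched in the windows of DICER1-AS1, NNT-AS1 and FGD5-AS1 and in 44.6% of 27305 RefSeq promoters, and CCAAT in all 4 windows and in 35.7% of promoters. TGANTCA was matched once, in the GABPB1-AS1 window (7.76% of promoters), CCGGAAG once, in the NNT-AS1 window (10.7%), and TATAAA in none of the 4 windows (11.9% of promoters). CG dinucleotides numbered 38, 34 and 32 in the windows of DICER1-AS1, NNT-AS1 and FGD5-AS1 but 6 in that of GABPB1-AS1, against a median of 14 over all promoters. A promoter was listed for 225 of the 318 members (70.8%), which is under 80%, so no motif share over the members is given.

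Most antisense genes were written at low levels. The median of the members' mean CPM was 2.95, 64 members reached 10 CPM, and 103 were under 2 CPM. GENCODE 29 typed 242 as antisense, 36 as processed transcript and 33 as lincRNA. In exon positions on GRCh38, 218 members shared exon bases with the sense gene, 60 overlapped it without a shared exon, 27 lay head to head with it without overlap, and 2 lay tail to tail. For 96 members the start of the antisense gene was under 1 kb from that of the sense gene. On the CPM per kb scale, the antisense gene stood at a median of 24.0% of its sense gene and above it in 74 of the 306 pairs with both lengths.

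Reads in the antisense genes were more frequent in every treated library than in every control library. Per 100 reads in the sense genes, the members together had 8.96, 9.35 and 8.55 reads with IN10018, 10.3, 11.0 and 9.63 with crizotinib, 11.6, 11.8 and 10.6 with the combination, and 7.16, 7.88 and 7.05 in control. No treated group overlapped control, and the combination overlapped crizotinib. The share of mitochondrially encoded reads, which differed in another way, was 11.5 to 12.7% with IN10018, 5.21 to 13.3% with crizotinib, 4.28 to 6.99% with the combination and 11.0 to 11.9% in control; its part in the antisense values was not tested. In bulk RNA, a change in the cells present and a change in RNA per cell cannot be told apart.

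**Figure D1:**
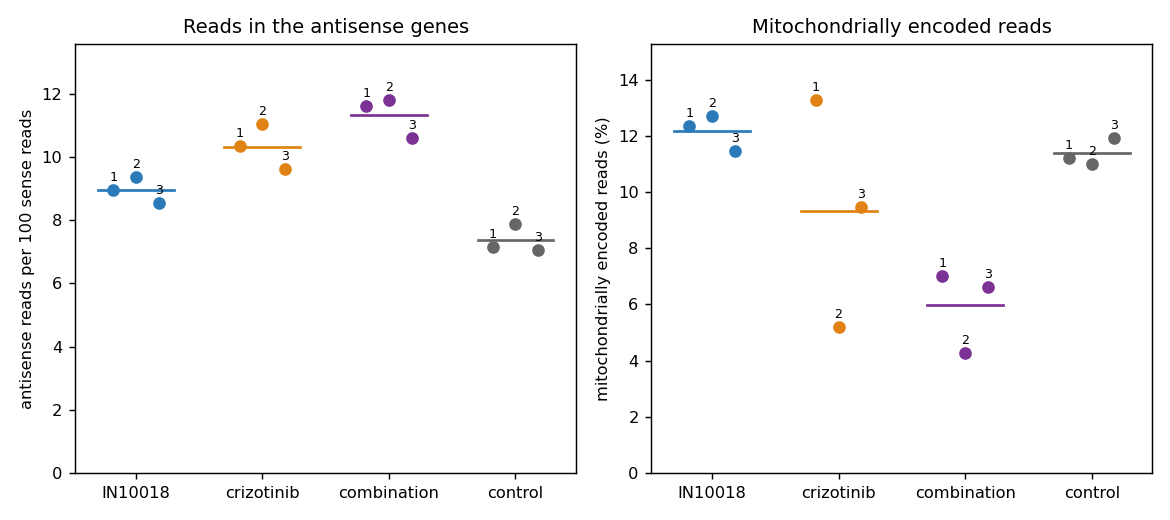
Left, reads in the 318 antisense genes per 100 reads in their sense genes; right, mitochondrially encoded reads as a percentage of all reads, for each of the 12 libraries, with the replicate number above each point and the group mean as a line. On the left every library with IN10018 (8.55 to 9.35), crizotinib (9.63 to 11.0) or both (10.6 to 11.8) lies above the control libraries (7.05 to 7.88).

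With IN10018 alone 257 of the 318 antisense genes (80.8%) had a log2 fold change above 0. The share was 46.8% of all genes tested and 79.8% of the other long non-coding genes. How many members passed the threshold varied with the fit. The edgeR quasi-likelihood test with an adjusted p under 0.05 called 5 of 318 members higher and 0 lower, where 0.345% of all 17096 genes tested were called higher and 0.158% lower. At an unadjusted p under 0.05 edgeR had 89 members higher and 1 lower, DESeq2 64 and 1, and limma-voom 85 and 1. Over all genes 11.03% passed that limit with edgeR in either direction. At an adjusted p under 0.05 DESeq2 called 13 members higher (0.3195% of all genes) and limma-voom 4 (0.2281%). With edgeR the higher calls numbered 64 with only the 6 libraries compared (8.38% of all genes) and 51 with the leading within-group axis as a covariate (5.49%). They numbered 37 without crizotinib 2 and combination 2 (3.64%), 20 with no filter (0.852%) and 19 with a replicate block (1.10%). The members' median log2 fold change was 0.28, beside −0.02 for all genes tested, −0.06 for protein-coding genes, −0.05 for the sense genes and 0.36 for the other long non-coding genes. In 109 members every IN10018 library lay above every control library (14% of all genes did), and in 7 every one lay below (18.9% of all genes). The 5 calls of the 12-library fit were not stable when 1 library was left out. Without control 1, control 3, IN10018 1 or IN10018 2 edgeR called 0 members. In those fits 0.01129%, 0.005675%, 0.01139% and 0.005703% of all genes were called higher, so the loss was not particular to the members. Without combination 1 edgeR called 3 (0.2053% of all genes). Without crizotinib 2, which feeds the shared estimate of spread, it called 13 (0.968% of all genes).

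The 5 members called higher with IN10018 were TMEM161B-AS1, EGFR-AS1, KDM4A-AS1, CCDC18-AS1 and RPARP-AS1. TMEM161B-AS1 (chr5:88268895-88436685, plus strand, GENCODE 29 on GRCh38) shares 185 exon bases with TMEM161B, which encodes a membrane protein. It had 13.9, 14.7 and 12.04 normalised CPM with IN10018, 13.9, 8.21 and 11.6 with crizotinib, 9.68, 9.43 and 11.0 with the combination, and 6.42, 7.01 and 5.68 in control. Every treated library was above control, and the IN10018 values were the highest on average. Its log2 fold changes against control were 1.09 ± 0.18 with IN10018 (SE; adjusted p = 0.0184), 0.82 ± 0.18 with crizotinib (adjusted p = 0.00624) and 0.66 ± 0.18 with the combination (adjusted p = 0.00632), the last at 0.52 (adjusted p = 0.0524) without control 3. Its call with IN10018 was lost without control 1 (adjusted p = 0.094), control 3 (0.16), IN10018 1 (0.0804) or IN10018 2 (0.145).

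EGFR-AS1 (chr7:55179750-55188934, minus strand) lies within the gene of the epidermal growth factor receptor, a receptor tyrosine kinase, and shares 186 exon bases with it. It had 2.96, 2.77 and 2.68 normalised CPM with IN10018, 1.66, 1.48 and 1.08 with crizotinib, 1.31, 1.04 and 1.89 with the combination, and 1.12, 1.21 and 1.17 in control. The IN10018 libraries stood above all the others. This call was lost without any single control or IN10018 library, and without combination 1 (adjusted p from 0.0598 to 0.225). Its log2 fold change was 1.26 ± 0.24 with IN10018 (adjusted p = 0.0381), and it was 0.27 ± 0.26 with crizotinib and 0.28 ± 0.27 with the combination, both not called. EGFR itself had 773, 738 and 794 normalised CPM with IN10018, 557, 244 and 409 with crizotinib, 263, 213 and 310 with the combination, and 900, 781 and 857 in control. EGFR fell by 1.07 with crizotinib (adjusted p = 0.00468) and by 1.69 with the combination (adjusted p = 8.09e-05), and was at −0.14 ± 0.22 with IN10018. The difference between the change of EGFR-AS1 and that of EGFR was 1.32 ± 0.30 with IN10018 (adjusted p = 0.00398), 1.37 ± 0.30 with crizotinib (adjusted p = 0.000646) and 1.92 ± 0.30 with the combination (adjusted p = 1.9e-06).

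With crizotinib many more antisense genes were called. It had 119 members called higher and 11 called lower, where 20% of all genes tested were called higher and 17.6% lower. The members' median log2 fold change was 0.48, beside 0.08 for all genes tested, −0.02 for protein-coding genes, −0.05 for the sense genes and 0.50 for the other long non-coding genes. Every crizotinib library lay above every control library in 146 members (26.3% of all genes) and below in 19 (25.1% of all genes). Without control 3 the calls were 66 higher (7.68% of all genes). The 11 lower calls became 3 without control 1 (7.745% of all genes), 6 without control 2 (13.03%) and 7 without control 3 (13.25%). They became 4 without crizotinib 2 (10.75%) or crizotinib 3 (12.92%), and 27 without crizotinib 1 (19.98%).

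The combination had the largest number of calls among the 3 treatments against control. It had 165 members called higher and 41 called lower, where 33.7% of all genes were called higher and 29.1% lower. With library totals in place of TMM factors the 41 lower calls were 22, where 22.04% of all genes were called lower. The median was 0.58, beside 0.10 for all genes tested, −0.06 for protein-coding genes, −0.09 for the sense genes and 0.65 for the other long non-coding genes. Every combination library lay above every control library in 170 members (37.9% of all genes) and below in 44 (33.2% of all genes). The treatments share the control libraries, so their counts are given side by side. Of the members, 111 were called higher with crizotinib and the combination but not with IN10018, and 3 in all 3 treatments. With the combination alone 51 were called higher and 31 lower, and 105 were called in none. These patterns were not counted over all genes, so they are not shown to be particular to the members. Using library totals instead of TMM factors moved the median of all genes by 0.12 with crizotinib and 0.18 with the combination on the log2 scale; relative to that median the members stood at 0.39 and 0.48 under either scaling, as medians.

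The upward lean was seen at every level of expression. With the combination the median was 0.63 in the 64 members at 10 CPM or more, 0.52 in the 151 from 2 to under 10 CPM and 0.66 in the 103 under 2 CPM. Among the 147 antisense genes below the 1 CPM limit that could be tested, it was 0.32 with IN10018, 0.37 with crizotinib and 0.48 with the combination.

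**Figure D2:**
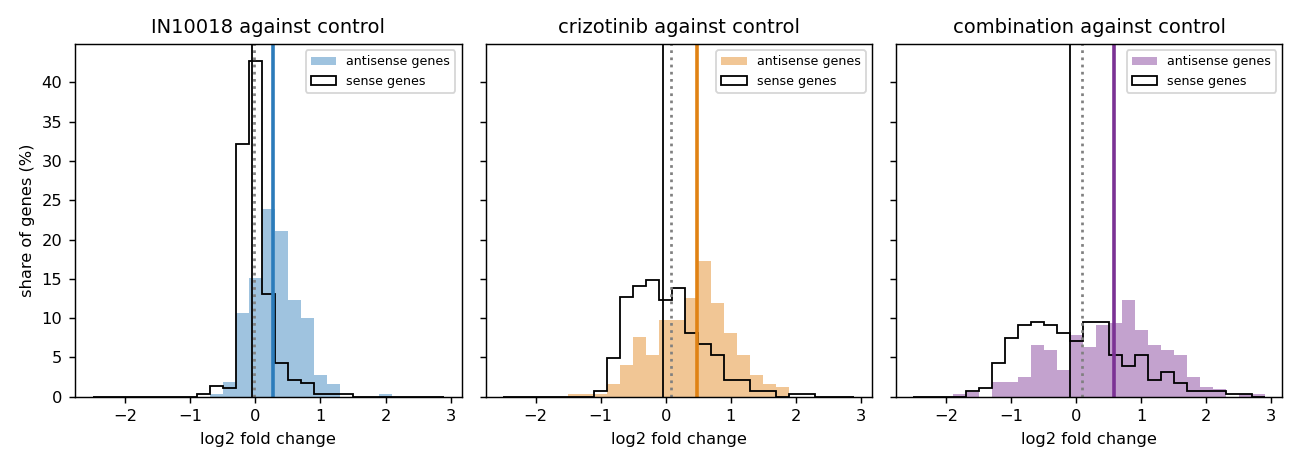
Share of genes (%) by log2 fold change against control, for the 318 antisense genes (filled) and 283 tested sense genes (black line); thick vertical lines mark the antisense median, thin black lines the sense median and dotted lines the median of all genes tested. The antisense median lies at 0.28, 0.48 and 0.58 with IN10018, crizotinib and the combination, to the right of the sense median in each panel.

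Of the most abundant members, some rose and some fell. OIP5-AS1 (chr15:41283990-41309737, plus strand), known as cyrano and for its pairing with miR-7, had 217, 228 and 229 normalised CPM with IN10018, 230, 202 and 219 with crizotinib, 177, 134 and 212 with the combination, and 235, 222 and 238 in control. All combination libraries lay below control, and they overlapped the crizotinib libraries. OIP5-AS1 fell by 0.41 ± 0.13 on the log2 scale with the combination (adjusted p = 0.0155; −0.23 and 0.136 when scaled by library totals). Without combination 2 the change of OIP5-AS1 was −0.27 (adjusted p = 0.0478).

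FGD5-AS1 (chr3:14920347-14948424, minus strand), which has been described as binding miRNAs in tumours, had 167, 161 and 163 normalised CPM with IN10018, 136, 64.2 and 97.3 with crizotinib, 61.9, 42.7 and 71.8 with the combination, and 188, 171 and 181 in control. All 3 treated groups lay below control, and crizotinib spread widest. It fell by 0.86 ± 0.22 with crizotinib (adjusted p = 0.0104) and by 1.61 ± 0.22 with the combination (adjusted p = 9.85e-05), with −0.14 ± 0.22 for IN10018. Its sense gene FGD5, an exchange factor for the GTPase CDC42 known from endothelium, was near 0 in all libraries and was not tested.

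IGFL2-AS1 (chr19:46189166-46203083, minus strand) lies tail to tail with IGFL2, a member of a small family of insulin growth factor-like genes, and does not overlap it. It had 38.8, 41.1 and 38.5 normalised CPM with IN10018, 94.8, 123 and 93.3 with crizotinib, 159, 209 and 141 with the combination, and 32.7, 40.9 and 31.5 in control. Crizotinib and the combination lay above every control library and did not overlap each other, while IN10018 overlapped control. IGFL2-AS1 rose by 1.57 ± 0.16 with crizotinib (adjusted p = 0.000108) and by 2.27 ± 0.16 with the combination (adjusted p = 1.86e-06). IGFL2 rose by 0.84 and 1.08 in the same comparisons, and the difference between both genes was 0.75 ± 0.15 (adjusted p = 0.000309) and 1.19 ± 0.15 (adjusted p = 3.9e-08).

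PAX8-AS1 and its sense gene, the transcription factor PAX8, moved together. PAX8-AS1 had 109, 109 and 106 normalised CPM with IN10018, 128, 138 and 123 with crizotinib, 145, 149 and 135 with the combination, and 76.5, 92.4 and 77.2 in control, with every treated library above control. It rose by 0.66 ± 0.10 with crizotinib (adjusted p = 0.00134) and by 0.80 ± 0.10 with the combination (adjusted p = 6.91e-05), and PAX8 rose by 0.71 and 0.91. The difference was −0.04 ± 0.14 with crizotinib and −0.09 ± 0.14 with the combination, and neither was called.

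PSMA3-AS1 overlaps the proteasome subunit gene PSMA3 on the opposite strand without a shared exon. It had 107, 115 and 94.1 normalised CPM with IN10018, 107, 133 and 123 with crizotinib, 155, 142 and 144 with the combination, and 77.5, 91.4 and 75.9 in control, again with no overlap between treatment and control. It rose by 0.57 ± 0.12 with crizotinib (adjusted p = 0.00444) and by 0.85 ± 0.12 with the combination (adjusted p = 9.11e-05). PSMA3 was at 0.18 ± 0.10 and 0.19 ± 0.10 and was not called. The difference with the combination was 0.66 ± 0.13 (adjusted p = 8.62e-05).

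Among members at lower levels, RPARP-AS1 had no sense gene in the table. It had 14.7, 16.1 and 15.1 normalised CPM with IN10018, 21.1, 24.3 and 24.2 with crizotinib, 28.5, 29.5 and 25.9 with the combination, and 8.14, 10.5 and 8.87 in control, so the 4 groups did not overlap. RPARP-AS1 rose by 1.33 ± 0.12 with crizotinib (adjusted p = 4e-05) and by 1.60 ± 0.12 with the combination (adjusted p = 3.74e-06). RUSC1-AS1 rose by 1.67 ± 0.19 with the combination (adjusted p = 5.1e-05), while RUSC1, an adaptor gene, was at −0.11 ± 0.12 and was not called. CIRBP-AS1 rose by 2.25 ± 0.30 with the combination (adjusted p = 8.16e-05), and CIRBP, which encodes a cold-inducible RNA-binding protein, by 1.43. The greatest rise among called members was that of ASMTL-AS1, by 2.79 ± 0.38 with the combination (adjusted p = 9.79e-05); its locus has a copy on the other sex chromosome, so its counting is uncertain.

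Falls were fewer, and several accompanied falls of the sense gene. SLC7A11-AS1 (chr4:138057464-138178177, plus strand) overlaps on the opposite strand SLC7A11, the gene of the cystine-glutamate exchanger that feeds glutathione synthesis. It had 14.6, 15.6 and 13.9 normalised CPM with IN10018, 6.09, 2.96 and 5.15 with crizotinib, 4.45, 2.50 and 3.67 with the combination, and 14.1, 13.3 and 11.95 in control. The crizotinib and combination libraries were all below control, and IN10018 overlapped it. SLC7A11-AS1 fell by 1.47 ± 0.22 with crizotinib (adjusted p = 0.00141) and by 1.88 ± 0.23 with the combination (adjusted p = 6.77e-05), and SLC7A11 fell by 0.86 ± 0.18 (adjusted p = 0.00546) and 1.21 ± 0.19 (adjusted p = 0.000163). The antisense gene fell further with the combination, by a difference of −0.66 ± 0.20 (adjusted p = 0.00681). TMPO-AS1 fell by 0.82 ± 0.20 with the combination (adjusted p = 0.00298), and TMPO, which encodes lamina-associated polypeptides of the nuclear envelope, fell by 1.26.

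Whether an antisense gene moved unlike its sense gene was tested on the difference itself, log2 CPM of the antisense minus that of the sense gene in each library, for 289 member pairs among 423 tested. IN10018 gave 25 member pairs with a higher difference and 2 with a lower one, where 7.09% and 0.473% of all pairs were called. Crizotinib gave 97 higher and 16 lower, where 25.8% and 4.26% of all pairs were called. The combination gave 129 higher and 33 lower, where 40.4% and 9.46% of all pairs were called. The median difference over member pairs was 0.29, 0.39 and 0.50 in that order, and over all 423 pairs it was 0.31, 0.42 and 0.57. The IN10018 count of 25 was 9 without control 1 (2.746% of all pairs) and 11 without control 3 (3.233%). It was 6 without IN10018 2 (1.843%) and 38 without control 2 (9.885%). The crizotinib count of 97 was 63 without crizotinib 2 (16.94% of all pairs). Its 16 lower differences were 6 without control 1 (1.831%), 8 without crizotinib 2 (2.088%) and 9 without crizotinib 3 (2.529%).

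With the combination, both genes of a pair were called higher in 64 pairs and both lower in 22. In 42 pairs the antisense gene was called higher and the sense gene lower. The difference was called in all 42, which opposite calls make nearly certain beforehand. In 24 of these pairs the starts were under 1 kb apart. Of all members 51.9% were called higher, and of the tested sense genes 40.3% lower, so such pairs would also arise with no link between both genes. An excess of such pairs over those shares was not shown and was not tested. The count of 42 was 24 without control 3. The reverse, antisense lower and sense higher, was found for NUTM2A-AS1, DHRS4-AS1, SDCBP2-AS1, PLCG1-AS1 and HMGN3-AS1. NUTM2A-AS1 and DHRS4-AS1 belong to families with near-identical copies, so their values are uncertain. With crizotinib 13 pairs had the antisense gene higher and the sense gene lower, and none the reverse. In that comparison 37.4% of all members were called higher and 26.5% of the tested sense genes lower. The 13 became 3 without control 1, 7 without control 2, 5 without control 3 and 6 without crizotinib 2. They became 8 without crizotinib 3, IN10018 1, IN10018 3 or combination 1.

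**Figure D3:**
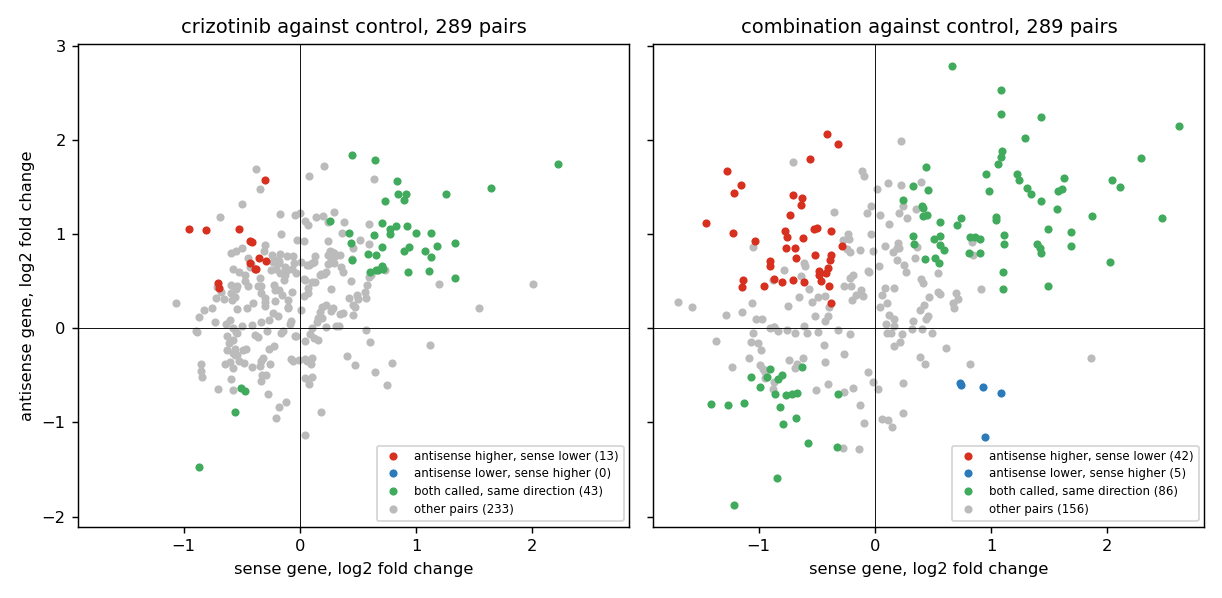
Log2 fold change of the antisense gene (vertical) against that of its sense gene (horizontal) with crizotinib (left) and with the combination (right), 1 point for each of 289 pairs, coloured by which genes were called at an adjusted p under 0.05. Points in the upper left are pairs with the antisense gene higher and the sense gene lower, 13 with crizotinib and 42 with the combination.

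GABPB1-AS1 (chr15:50354959-50372202, plus strand) shares 424 exon bases with GABPB1; its GENCODE start lies downstream of the RefSeq start used for the window above. Its sense gene GABPB1 encodes a subunit of the ETS factor GABP, which drives nuclear genes for mitochondrial proteins. GABPB1-AS1 had 98.3, 106 and 86.8 normalised CPM with IN10018, 119, 172 and 135 with crizotinib, 180, 198 and 170 with the combination, and 63.1, 85.1 and 57.0 in control, with no overlap between any treatment and control. GABPB1 had 41.9, 43.8 and 43.6 with IN10018, 34.1, 26.9 and 36.2 with crizotinib, 30.5, 23.0 and 31.8 with the combination, and 48.0, 46.5 and 44.9 in control. GABPB1-AS1 rose by 1.05 ± 0.16 with crizotinib (adjusted p = 0.00142) and by 1.42 ± 0.16 with the combination (adjusted p = 5.1e-05), while GABPB1 fell by 0.52 ± 0.13 (adjusted p = 0.0113) and 0.71 ± 0.14 (adjusted p = 0.000592). The difference was 1.58 ± 0.22 with crizotinib (adjusted p = 9.2e-05) and 2.15 ± 0.22 with the combination (adjusted p = 1.09e-06).

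DICER1-AS1 (chr14:95157645-95179933, plus strand) shares its promoter window with DICER1, the gene of the RNase that cuts miRNA precursors. It had 1.73, 1.92 and 2.20 normalised CPM with IN10018, 2.84, 3.59 and 3.11 with crizotinib, 3.80, 5.13 and 3.67 with the combination, and 1.42, 1.93 and 1.28 in control. DICER1 had 113, 113 and 116 with IN10018, 80.2, 50.5 and 66.8 with crizotinib, 50.4, 38.7 and 60.4 with the combination, and 119, 113 and 114 in control. In the crizotinib and combination libraries the antisense gene was above and the sense gene below every control library. DICER1-AS1 rose by 1.04 ± 0.23 with crizotinib (adjusted p = 0.00574) and by 1.44 ± 0.22 with the combination (adjusted p = 0.000164), and DICER1 fell by 0.81 ± 0.16 (adjusted p = 0.00444) and 1.21 ± 0.17 (adjusted p = 9.41e-05). The difference was 2.61 ± 0.28 with the combination (adjusted p = 1.9e-09).

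FRMD6-AS1 (chr14:51649516-51651744, minus strand) lies wholly inside FRMD6, a FERM domain gene placed upstream of the Hippo pathway, without sharing an exon. It had 1.73, 1.41 and 2.13 normalised CPM with IN10018, 1.83, 3.13 and 2.67 with crizotinib, 3.80, 4.72 and 3.24 with the combination, and 1.05, 1.27 and 1.33 in control. FRMD6 had 109, 107 and 124 with IN10018, 86.4, 50.5 and 67.7 with crizotinib, 57.1, 44.2 and 63.1 with the combination, and 134, 133 and 129 in control. No treated library of either gene overlapped control. The difference reached 2.87 ± 0.31 with the combination (adjusted p = 7.73e-09), with a rise of 1.67 ± 0.26 for FRMD6-AS1 (adjusted p = 0.000157) while FRMD6 stood at −1.27 ± 0.17 (adjusted p = 8.63e-05).

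SLC25A25-AS1 (chr9:128108581-128118693, minus strand) had the smallest p among the member pairs with the combination. It had 16.6, 16.6 and 15.4 normalised CPM with IN10018, 19.6, 24.8 and 20.1 with crizotinib, 30.9, 34.8 and 24.0 with the combination, and 8.81, 14.5 and 10.8 in control. SLC25A25, a carrier of ATP-Mg across the inner mitochondrial membrane, had 7.65, 7.26 and 9.02 with IN10018, 7.87, 10.5 and 8.07 with crizotinib, 7.25, 7.63 and 7.95 with the combination, and 12.5, 12.2 and 10.6 in control. Every treated library was above control for the antisense gene and below it for the sense gene. The difference was 1.09 ± 0.19 with IN10018 (adjusted p = 0.000457), 1.35 ± 0.19 with crizotinib (adjusted p = 4.3e-06) and 2.01 ± 0.19 with the combination (adjusted p = 1.11e-10).

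NNT-AS1 (chr5:43571594-43603230, minus strand) starts within 1 kb of the start of NNT and was chosen after its values were seen. It had 23.1, 26.5 and 22.8 normalised CPM with IN10018, 25.7, 33.6 and 35.0 with crizotinib, 30.5, 34.4 and 35.3 with the combination, and 25.0, 21.8 and 23.3 in control. NNT, which encodes the transhydrogenase that supplies mitochondrial NADPH, had 133, 133 and 149 with IN10018, 115, 73.1 and 96.3 with crizotinib, 68.8, 55.3 and 85.4 with the combination, and 156, 145 and 159 in control. Only the IN10018 libraries overlapped control. With the combination NNT-AS1 rose by 0.52 ± 0.13 (adjusted p = 0.0035), NNT fell by 1.13 ± 0.17 (adjusted p = 0.000127), and the difference was 1.67 ± 0.20 (adjusted p = 3.18e-07).

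**Figure D4:**
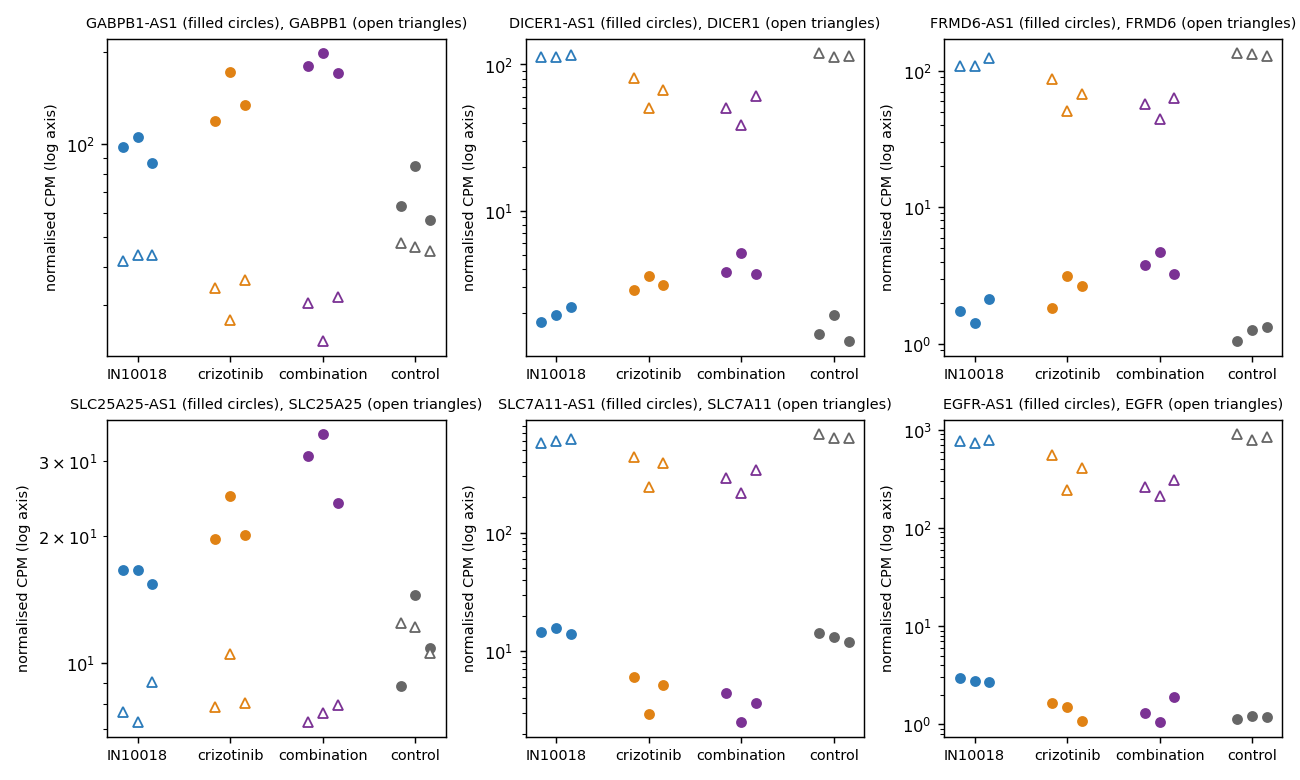
Normalised CPM on a log axis, not corrected for gene length, in each library of 6 antisense genes (filled circles) and their sense genes (open triangles). In the combination libraries GABPB1-AS1, DICER1-AS1, FRMD6-AS1 and SLC25A25-AS1 lie above and their sense genes below control, SLC7A11-AS1 and SLC7A11 both lie below control, and EGFR-AS1 stands above all other groups with IN10018.

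Members were also grouped by how they lie to the sense gene. In the 218 members that share exon bases with the sense gene the median log2 fold change was 0.28 with IN10018, 0.50 with crizotinib and 0.60 with the combination, and in the 60 that overlap without a shared exon it was 0.34, 0.46 and 0.56. In the 27 members that lie head to head without overlap it was 0.01, 0.12 and 0.10, and their sense genes stood at −0.10, −0.32 and −0.52. With the combination 9 of these 27 were called higher and 7 lower, shares near the 33.7% and 29.1% of all genes. The differences between these classes were not tested.

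**Figure D5:**
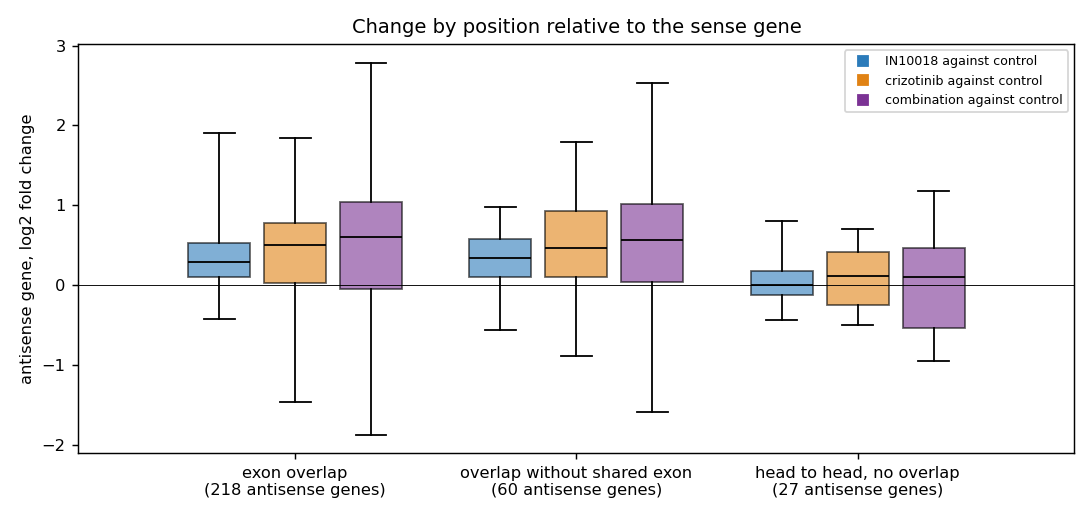
Log2 fold change against control of antisense genes grouped by position relative to the sense gene, for IN10018, crizotinib and the combination; boxes span the quartiles, black lines are medians and whiskers reach the lowest and highest gene. The 27 head-to-head genes without overlap have medians of 0.01, 0.12 and 0.10, below those of the overlapping classes.

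Across the 289 pairs the changes of antisense and sense genes had a Pearson correlation of 0.05 with IN10018, 0.38 with crizotinib and 0.42 with the combination. These are descriptions across genes, and both genes of a pair share libraries, scaling and often position. With the combination the correlation was 0.49 in the 194 pairs with starts 1 kb or more apart and 0.20 in the 95 with closer starts.

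The library kit was a directional one, but the strand setting of the counting is not given in the sources used here. Without strand, reads from a gene and from its antisense partner or host cannot be told apart where they overlap. Strand does not separate a member from a host gene on its own strand. PSMA3-AS1 and OIP5-AS1 had 100% and 99.82% of exon bases inside protein-coding genes of their own strand. Of their exon bases 3.415% and 2.58% lay in exons of other genes on that strand. Of 29 antisense rows in the table with at least 90% of their exon bases in sense exons, 23 (79.31%) had no read in any library. The same held for 15 of the 18 whose sense gene reached 10 CPM. Of the 700 rows with above 0 and under 90% of their exon bases in sense exons, 20.86% had no read. Of the 561 rows with 0%, 31.73% had no read. Whether the counting used strand was not tested by these shares. Members with no exon base inside a protein-coding gene numbered 30. They had medians of 0.01 with IN10018, 0.13 with crizotinib and 0.11 with the combination, with 11 called higher and 7 lower with the combination, again near the 33.7% and 29.1% of all genes. The 115 with some exon bases inside but more outside had medians of 0.16, 0.54 and 0.66, and the other 173 had 0.38, 0.47 and 0.56. The part of reads from host genes in these values was not tested.

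Combination against crizotinib had 0 of 318 members called in either direction with edgeR, where 0% of all genes were called higher and 0.0117% lower. At an unadjusted p under 0.05 edgeR had 35 members higher and 15 lower, where 21.6% of all genes passed in either direction. At an adjusted p under 0.05 DESeq2 called 2 higher (0.04485% of all genes) and limma-voom none. The replicate numbers were not shown to pair all libraries of these 2 groups. With the number as a block edgeR called 4 members higher and 0 lower, where 0.526% and 0.0234% of all genes were called. With the block fitted to these 6 libraries alone it called 36 higher and 8 lower, where 12.1% and 11.0% of all genes were called. Without crizotinib 2 edgeR without the block called 42 higher and 18 lower, where 14.97% and 17.34% of all genes were called. The members' median was 0.08, beside −0.01 for all genes.

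Combination against IN10018 had 112 called higher and 54 lower, where 29.7% of all genes were called higher and 27.5% lower (57.2% in either direction), with a median of 0.26 beside 0.04 for all genes. Without combination 2 the higher calls were 71, where 20.56% of all genes were called higher. Departure from additive log2 changes of both drugs (the interaction) was called for 0 members with edgeR, where 0.0702% of all genes were called in either direction (0.0585% higher and 0.0117% lower). At an unadjusted p under 0.05 edgeR had 5 members above and 35 below additivity, where 7.996% of all genes passed in either direction. At an adjusted p under 0.05 DESeq2 called 1 below (0.04765% of all genes) and limma-voom none. Without crizotinib 2 the interaction had 10 members called below additivity, where 2.37% of all genes were. Over all 12 libraries the median interaction was −0.22 in the members, beside −0.05 for all genes.

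Genes of the machinery that limits antisense RNA in the nucleus were examined from lists. Of 26 genes of the nuclear exosome and its cofactors, 0 were called with IN10018, 3 higher and 9 lower with crizotinib, and 7 higher and 10 lower with the combination. In either direction 37.6% of all genes were called with crizotinib and 62.8% with the combination, so the exosome list's share with the combination is near that of all genes, and its median was −0.04 beside 0.10. Its catalytic subunits DIS3 and EXOSC10 fell by 0.97 ± 0.14 (adjusted p = 0.000141) and by 0.84 ± 0.15 (adjusted p = 0.000408) with the combination. The core subunits EXOSC4, EXOSC7, EXOSC1 and EXOSC5, which have no catalytic role in human cells, rose by 1.76, 0.61, 0.53 and 0.44, with adjusted p from 0.000444 to 0.0159. RBM7, a subunit of an adaptor that brings nuclear RNA to the exosome, fell by 0.83 ± 0.16 (adjusted p = 0.000655). XRN2, the nuclear 5′ to 3′ exonuclease, fell by 0.70 ± 0.11 (adjusted p = 0.000155). PABPN1, the nuclear poly(A)-binding protein, rose by 1.54 ± 0.25 (adjusted p = 0.000195). Of the 14 subunits of Integrator, a complex that cleaves nascent non-coding RNA, 3 were called higher and 9 lower with the combination. Their median was −0.51 beside 0.10 for all genes. The 3 that rose were INTS11 by 0.97 ± 0.17 (adjusted p = 0.000294), INTS1 by 0.53 (adjusted p = 0.0389) and INTS3 by 0.45 (adjusted p = 0.00636). Of 10 tested enzymes that edit or cut double-stranded RNA, 3 were called higher and 4 lower with the combination, DICER1 among the lower, where 33.7% and 29.1% of all genes were called.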

How the data were processed

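The deposited table holds whole read counts per gene, not normalised, for 12 libraries. Per the submitters' processing notes the tools named are Trimmomatic, FastQC, HISAT2, featureCounts and DESeq2, and the builds named are hg38 and GRCh38; versions, annotation release and strand setting are not given in the sources used here. Every row named a gene. Groups follow the treatment label. All 12 libraries entered 1 edgeR 4.0.16 fit in R 4.3.3 (TMM, filterByExpr, robust quasi-likelihood F test, 17096 genes tested). A gene was called at an adjusted p (Benjamini-Hochberg over all genes) below 0.05. The common biological coefficient of variation was 0.139. Normalised CPM are CPM divided by the TMM factor of the library; an SE is the change divided by the root of F. Pair differences used limma 3.58.1 (trend, robust) on log2 CPM with a prior count of 2, adjusted over 423 pairs. Positions, types and exon lengths came from GENCODE 29, which held 96.5% of the gene IDs and all 318 members, and promoters from RefSeq (166 matched by gene ID and 59 by symbol). With the depth of these libraries, 3 reads correspond to 0.146 to 0.219 CPM, counting error only.

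The members, lists and tests were chosen with earlier results of these data known. Named genes are the 8 most abundant members, the 6 largest called rises and falls per treatment with groups that do not overlap, the 5 pairs with the smallest p of the difference per treatment, up to 4 called members in the other comparisons, and a list of described antisense RNAs; some are left out, and NNT-AS1, the 5 reversed pairs and the exosome genes were named after their values were seen.

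Whether replicate numbers pair libraries was checked on deviations from the group means. Same-number correlations were 0.218, 0.624 and 0.275 between combination and crizotinib, all above 0.1. Of different numbers, combination 3 with crizotinib 1 had 0.422, combination 1 with crizotinib 3 had 0.0843, and the others were below 0. Combination 3 was thus closer to crizotinib 1 than to crizotinib 3, and the numbers are not shown to pair all libraries of those groups. Against control the same-number correlations ran from −0.004 to 0.156 and did not all pass 0.1. Alternatives were other scaling, filters, tools (DESeq2 1.42.0, limma-voom), a replicate block, the leading within-group axis as a covariate, fewer libraries and other CPM limits. Scripts were tested on simulated data.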

Additional observations from a re-analysis of the deposited data

How the results depend on the processing

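For members called higher with IN10018 (5), the count was 20 with no filter, 13 with DESeq2, 19 with a replicate block, 51 with the axis covariate, 64 with only the libraries compared and 37 without crizotinib and combination libraries 2; leaving out 1 library gave 0 to 13 higher and 0 lower. For crizotinib the 11 lower calls were 5 with library totals (11.4% of all genes) and 18 with the block (20.62%). They were 30 with the axis covariate (27.11%) and 7 with only the libraries compared (16.54%). Leaving out 1 library gave 66 to 125 higher and 3 to 27 lower. For the combination the 41 lower calls were 22 with library totals; leaving out 1 library gave 124 to 168 higher and 29 to 44 lower. Combination against crizotinib had 10 higher and 3 lower with no filter (2.164% and 2.724% of all genes). It had 2 higher with DESeq2 (0.04485%) and 4 higher with the block (0.5264%). With the axis covariate it had 43 and 15, where 16.58% and 19.22% of all genes were called. With the block in only the libraries compared it had 36 and 8 (12.11% and 11%). Without libraries 2 it had 27 and 8 (10.89% and 14.36%). Leaving out 1 library gave 0 to 42 higher and 0 to 18 lower. Combination against IN10018 ran from 71 to 118 higher and 38 to 59 lower when 1 library was left out. The interaction had 6 above and 34 below additivity with the axis covariate, where 9.224% and 10.17% of all genes were called. It had 1 and 14 without libraries 2, where 5.413% and 5.709% of all genes were called. It had 5 below with no filter (0.3475% of all genes) and 1 below with DESeq2 (0.04765%). Leaving out 1 library gave 0 above and 0 to 10 below. Pair differences with IN10018 (25 higher, 2 lower) were 45 higher with the axis covariate (12.06% of all pairs). They were 1 lower with voom weights (0.2364%) or the stricter filter (0.2985%), and 4 lower with only the libraries compared (1.14%). Leaving out 1 library gave 6 to 38 higher and 1 to 3 lower. With crizotinib the 16 lower differences were 10 without libraries 2; leaving out 1 library gave 63 to 98 higher and 6 to 20 lower, and with the combination 114 to 136 and 24 to 41. Pairs with the antisense gene higher and the sense gene lower (13 with crizotinib) were 20 with the block, 33 with the axis covariate and 7 with only the libraries compared, and 3 to 18 when 1 library was left out; with the combination (42) they ran from 24 to 43. These pair counts, and the block in 6 libraries, were added after seeing the data. Of 1694 alternatives for 77 called changes of named genes, 135 lost the call and 0 changed sign; of 1360 for 68 called differences, 76 lost it and 0 changed sign. The cause was not tested. Depth limits members near 1 CPM most. Leaving out 1 library also moved the share of all genes called. For crizotinib it ran from 7.684% to 25.45% higher and from 7.745% to 19.98% lower.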
